A study of Macaca mulatta with 4 samples.

Results

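Chromosome 19 carried 556 of the 20750 HIF-1α peaks called in infarcted rhesus macaque heart, 352 of 13351 at 6 h after infarction and 204 of 7399 at 4 weeks. Only 8359 of the 6 h peaks (62.6%) and 4135 of the 4-week peaks (55.9%) lay on named chromosomes, and the rest lay on other sequences. The members are all peaks of both deposited lists whose sequence name is chromosome 19. The chromosome was chosen by its peak density, the highest of the numbered chromosomes in both lists. Peak numbers and density are therefore given as a description with no test.

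Chromatin immunoprecipitation with sequencing (ChIP-seq) recovers the DNA bound by a protein with an antibody, here one against HIF-1α, and a peak is a stretch where the antibody library is enriched over its control. All 4 samples were heart tissue of male Macaca mulatta with a myocardial infarction made by ligating the left anterior descending coronary artery. The groups were 1 HIF-1α ChIP library at 6 h, 1 at 4 weeks, and, at each time, an input library made from chromatin with no antibody step. The age of the animals, how many stood behind a library and whether tissue was pooled are not stated in the labels. The infarct holds several cell types, and peak positions cannot tell which of them carried the binding. No sample without infarction is among the 4, so the lists say nothing of the uninjured heart.

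HIF-1 is a transcription factor made of a pair of subunits. The α subunit is destroyed while oxygen is plentiful and accumulates when it is short, and the factor then binds a short core site that contains a CpG and turns on genes of glycolysis and vessel growth, VEGFA among them. The study set HIF-1 binding in the early infarct beside that in the late infarct in the context of its regulation by copper. Macaque chromosome 19 is the counterpart of human chromosome 19, which is known for its high density of genes, its high GC content and its large families of zinc finger genes. Genes at the positions below were not assigned, since the gene table used here is of another assembly, and no genome sequence was used.

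At 6 h chromosome 19 carried 6.57 peaks per Mb, and at 4 weeks it carried 3.81. The next densest, chromosome 16, had 5.34 and 2.85, and chromosome 20 had 4.10 and 2.62. All named chromosomes other than 19 together had 2.88 and 1.42 peaks per Mb. These densities use an extent of 53.5 Mb for chromosome 19, which ends at its last peak and is a lower bound of its length. Called peaks covered 0.188% of that extent at 6 h (101 kb) and 0.111% at 4 weeks (59.7 kb). On the other numbered chromosomes this share ran from 0.0517% on chromosome 5 to 0.157% on chromosome 16 at 6 h. At 4 weeks it ran from 0.0265% on chromosome 18 to 0.0857% on chromosome 16.

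The 6 h list held 1.73 times as many chromosome 19 peaks as the 4-week list (exact 95% interval 1.45 to 2.06). The ratio was 2.04 over the other chromosomes (1.96 to 2.12), a value inside the interval of chromosome 19. Chromosomes 8 and 20 had lower ratios, and chromosome 19 stood at rank 18 from the highest of 20 numbered chromosomes. All intervals given are for counting error alone, and they assume independent peaks although neighbours may not be. Each time is represented by 1 ChIP library, so no difference between the lists has a replicate check. The lists give positions alone, so read depth and the strength of each peak are unknown.

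**Figure D1:**
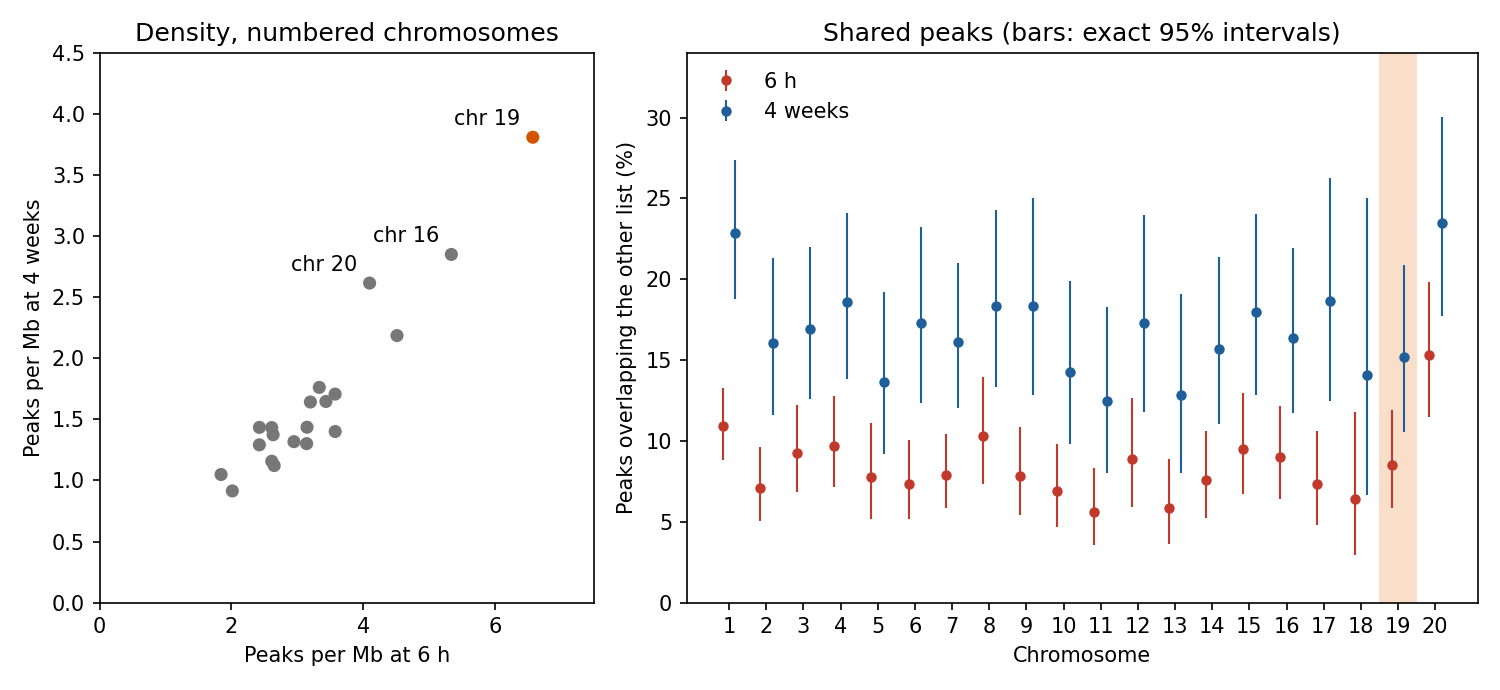
The left panel plots peaks per Mb at 4 weeks against peaks per Mb at 6 h for the 20 numbered chromosomes, and chromosome 19 (orange) is at the upper right with 6.57 and 3.81. The right panel plots the percent of each chromosome's peaks that overlap a peak of the other list, with exact 95% intervals; the shaded chromosome 19 (8.52% at 6 h, 15.2% at 4 weeks) lies inside the range of the others.

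Along the chromosome the densest 6 h windows, from 51000001 (19 peaks) and 1000001 (18), lay near opposite ends. The densest 4-week windows, from 1 (20 peaks) and 1000001 (16), lay at the low-numbered end alone. With both lists together, the thinnest part lay between 20000001 and 30000000. Counted by midpoint in 54 windows of 1 Mb, a window held a median of 6 peaks at 6 h (1 to 19) and 3 at 4 weeks (0 to 20). Every window had a 6 h peak, and 6 windows had no 4-week peak. The 6 h list had more peaks in 40 windows, the 4-week list in 6, and the numbers were equal in 8. Across the 54 windows the counts had a Spearman rho of 0.43 and a Pearson r of 0.47, given as a description, since windows share the same pair of libraries and the last one is cut short.

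The low-numbered end had the highest 4-week part. The first 1 Mb held 20 peaks at 4 weeks and 5 at 6 h, so 80.0% of its peaks came from the 4-week list (59.3 to 93.2%). Over the whole chromosome this part was 36.7%. The window was picked out after its values were seen, as the highest of 54, and the interval takes no account of that choice. On the other numbered chromosomes the 4-week part of the first 1 Mb had a median of 41.2%, its lowest value being 0 on chromosomes 2 and 7 and its highest 62.5% on chromosome 1. The part rested on few peaks on chromosomes 2 and 7, with 3 and 8 at 6 h. It was 12.5% on chromosome 16, with 7 peaks at 6 h and 1 at 4 weeks. On chromosome 20 it was 60.9% (38.5 to 80.3%), an interval that overlaps that of chromosome 19. In the first 1 Mb of chromosome 19 the 4-week peaks lay between 103081 and 995042, 10 of them beyond position 750001. Their median width was 245.5 bp and their median gap 35.3 kb. Of the 5 peaks at 6 h, 3 had the narrowest width of the list, 199 bp, and the widest was 320 bp. A single site in this window was called at both times.

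The windows next to it were rich in both lists. From 1000001 to 2000000 the 6 h list had 18 peaks and the 4-week list 16, and from 2000001 to 3000000 they had 12 and 10. The first 5 Mb as a whole held 46 peaks at 6 h, or 13.1% of the chromosome's list (9.73 to 17.04%). At 4 weeks they held 57, or 27.9% (21.9 to 34.6%). These intervals do not overlap, and this stretch is the only one of the 11 stretches of 5 Mb with more peaks at 4 weeks. It was picked out after its values were seen.

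Between 10000001 and 15000000 the order was the opposite, with 47 peaks at 6 h and 14 at 4 weeks. The windows from 10000001 and 12000001 had 12 against 3 and 13 against 4. The window from 18000001 was near even with 10 against 9. The chromosome was sparse from 20000001 to 25000000, with 18 peaks at 6 h and 4 at 4 weeks, and from 25000001 to 30000000, with 10 and 8. No site in these stretches was called at both times. They held few peaks, and over the whole chromosome only 8.52% of 6 h peaks and 15.2% of 4-week peaks were shared. Whether the middle differs in this was not tested.

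Beyond 30000001 windows with near even counts stood beside windows with mostly 6 h peaks. The window from 35000001 had 15 peaks at 6 h and 1 at 4 weeks. The windows from 40000001, 42000001 and 43000001 had 9 against 7, 8 against 9 and 8 against 7. From 45000001 to 50000000 the 6 h list had 34 peaks and the 4-week list 4, the lowest 4-week part of any 5 Mb stretch (10.5%, 2.94 to 24.8%). The windows from 50000001 and 51000001 had 16 against 8 and 19 against 9, the latter the highest 6 h count on the chromosome. These are all 12 windows with at least 15 peaks of both lists together; with windows shifted by 500 kb there were 7. The 95% interval of the 4-week part missed the 36.7% of the whole chromosome in 3 of 54 windows, those from 1, 35000001 and 49000001. At that level at most 2.7 windows would miss it on average if peaks were independent. This is an upper bound of the average and not of the number, since a window with few peaks can hardly miss it. The window from 48000001, with 7 peaks at 6 h and 0 at 4 weeks, had an interval of 0 to 41.0%. Whether 3 is more than independent peaks would give was not tested.

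**Figure D2:**
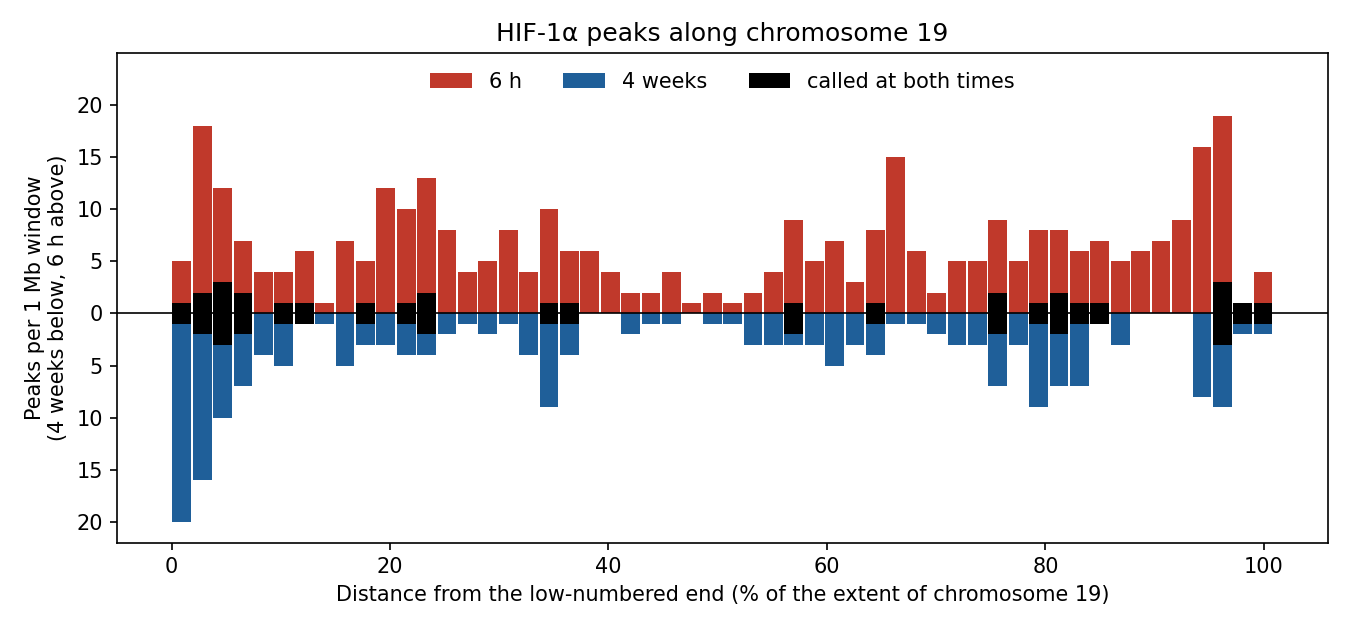
Bars give the number of peaks in each 1 Mb window of chromosome 19, with 6 h upward in red, 4 weeks downward in blue and the peaks called at both times in black; the horizontal axis is the distance from the low-numbered end as percent of the extent. The 4-week bars are tallest in the first window (20), the 6 h bars in a window near the far end (19), and both are low in the middle.

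Nearness to an end was examined with the stretches within 2 Mb of either end, 7.47% of the extent. They held 39 of 352 peaks at 6 h (11.1%, 7.998 to 14.8%) and 43 of 204 at 4 weeks (21.1%, 15.7 to 27.3%). At 4 weeks 36 of these lay at the low-numbered end and 7 at the other, and at 6 h 23 and 16. Without the first 1 Mb the 4-week share was 12.5% (8.09 to 18.2%), since 20 of the 43 peaks lay in that window. The 6 h share was then 9.80% (6.88 to 13.4%). The low-numbered end was in that case only positions 1000001 to 2000000, so these 2 shares have a smaller extent behind them than 7.47%. Over the other chromosomes 6.83% of 6 h peaks and 10.3% of 4-week peaks lay within 2 Mb of an end, where such stretches made up 3.02% of the extent. Chromosome 19 is short, so the same 2 Mb take a larger part of it, and the shares are not compared beyond these values.

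Stretches without peaks were listed next. No peak of either list was called from 27124956 to 28232334 (1.11 Mb), from 25630451 to 26695259 (1.06 Mb), from 6931588 to 7783709 (852 kb), from 22915769 to 23681583 (766 kb) and from 51986851 to 52681575 (695 kb). Of these 5 longest shared gaps, 3 lay in the sparse middle. Taken per list, a choice made after the values were seen, the longest stretch without a 4-week peak ran from 46888379 to 50247520 (3.36 Mb). It held 26 peaks at 6 h, or 7.39% of the 6 h list on this chromosome, at 7.74 per Mb, above the chromosome's mean. Their median width was 244 bp, close to the 252 bp of all 6 h peaks on the chromosome, and 6 of them had the narrowest width. The stretch was picked for its lack of 4-week peaks, so that count of 0 is given with no limit. The next longest 4-week gap, from 19788262 to 22836908 (3.05 Mb), held 12 peaks at 6 h. The longest 6 h gap was much shorter, from 25630451 to 26856027 (1.23 Mb), and held 1 peak at 4 weeks. Whether reads could be mapped throughout these stretches was not tested.

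Median peak widths on chromosome 19 were close to those elsewhere, while wide peaks were a smaller part of the 6 h list. The median width was 252 bp at 6 h (95% interval of the median 237 to 262 bp, quartiles 203 and 335 bp). At 4 weeks it was 256.5 bp (246 to 274 bp, quartiles 211 and 332 bp). The other chromosomes had medians of 254 bp (251 to 257 bp) and 261 bp (257 to 265 bp). The narrowest width, 199 bp in both lists, was held by 83 peaks at 6 h (23.6%, 19.2 to 28.4%) and 27 at 4 weeks (13.2%, 8.91 to 18.7%). Elsewhere these shares were 23.0% (22.1 to 24.0%) and 16.8% (15.7 to 18.02%). Few peaks were at least 500 bp wide, 14 at 6 h (3.98%, 2.19 to 6.58%) and 9 at 4 weeks (4.41%, 2.04 to 8.21%). The other chromosomes had 6.82% (6.28 to 7.39%) and 6.31% (5.57 to 7.11%), so the 6 h value elsewhere lay above the interval of chromosome 19, whose upper bound just overlaps the interval elsewhere. At 4 weeks the value elsewhere lay inside the interval of chromosome 19. In this share of wide peaks chromosome 19 stood at rank 19 from the highest of 20 at 6 h and rank 16 at 4 weeks. The difference was not tested.

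**Figure D3:**
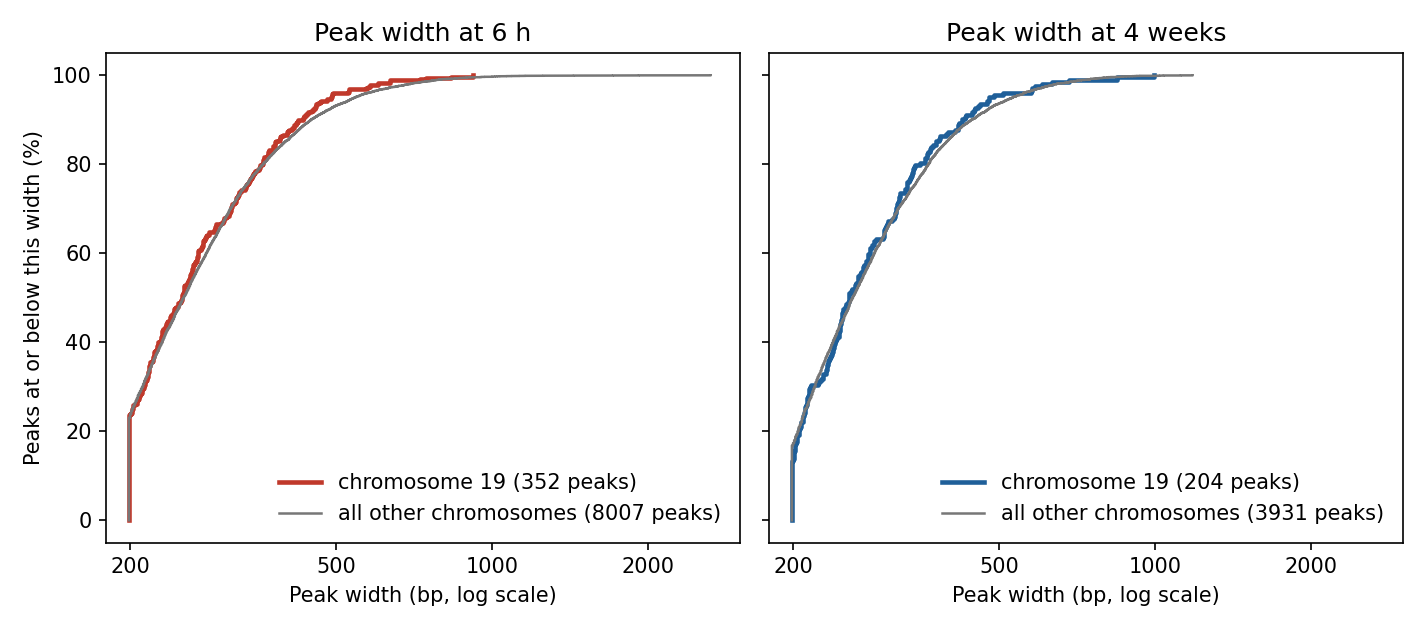
Each panel gives the percent of peaks at or below a given width in bp on a log scale, for chromosome 19 (coloured) and for all other chromosomes (grey), at 6 h on the left and 4 weeks on the right. The curves run close together from the step at 199 bp, through medians of 252 and 254 bp at 6 h and 256.5 and 261 bp at 4 weeks, and the widest peaks of chromosome 19 are 918 and 993 bp.

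The widest peak at 6 h spanned 12738756 to 12739673 (918 bp) and was also called at 4 weeks. It was followed by peaks at 44548481 to 44549311 (831 bp), 13136444 to 13137189 (746 bp), 30151604 to 30152327 (724 bp) and 6745812 to 6746446 (635 bp). The other 5 of the 10 widest started at 50082321, 15356531, 28232335, 35154758 and 13911851 and were 576 to 634 bp wide. Of these 10, 3 were called at 4 weeks as well, those starting at 12738756, 30151604 and 6745812. The same count was not made for the widest peaks of other chromosomes.

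The widest peak at 4 weeks spanned 51300032 to 51301024 (993 bp) and was called at 6 h with 388 bp. The next were at 2156971 to 2157812 (842 bp), 19783250 to 19783932 (683 bp), 5848449 to 5849079 (631 bp) and 17188031 to 17188635 (605 bp). The other 5 started at 44421518, 28524592, 51569094, 2477030 and 19748447 and were 488 to 587 bp wide. The first and the one starting at 51569094 were shared, 2 of 10, and here too no count was made elsewhere.

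Spacing is tied to density, which chose the chromosome, and is described only. The median gap between neighbouring peaks of a list was 82.8 kb at 6 h (67.6 to 94.3 kb) and 110 kb at 4 weeks (79.5 to 170 kb). The other chromosomes had medians of 144 and 326 kb, chromosome 16 had 87.3 and 195 kb, and chromosome 20 had 104 and 149 kb. Chromosome 19 had 58 of 351 gaps of at most 10 kb at 6 h (16.5%) and 30 of 203 at 4 weeks (14.8%). On chromosome 16, the nearest in density, these were 17.3% and 7.31%, and on all chromosomes other than 19 together 14.1% and 6.72%. Peaks with no other of the same list within 10 kb, called isolated, made up 71.6% at 6 h (66.6 to 76.2%) and 72.1% at 4 weeks (65.4 to 78.1%). At 4 weeks this was the lowest isolated share of the 20 numbered chromosomes, the others running from 79.2% on chromosome 8 to 96.9% on chromosome 18. Among the widest 50% of each list the isolated share on chromosome 19 was 87.9% at 4 weeks and 75.3% at 6 h. Its rank was not computed for those peaks. At 6 h chromosome 19 stood at rank 17 from the highest, with the lowest share, 46.2%, on chromosome 17. Over the other chromosomes together the isolated share was 77.1% at 6 h and 87.4% at 4 weeks. On chromosome 16 it was 70.4% and 86.8%.

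Close neighbours formed small groups and no long cluster. With at least 3 peaks and gaps of at most 10 kb there were 12 groups at 6 h, which held 40 peaks (11.4%, 8.24 to 15.2%), and 3 groups at 4 weeks, which held 9 (4.41%, 2.04 to 8.21%). No group had more than 4 peaks at 6 h or more than 3 at 4 weeks. The 6 h groups of 4 peaks spanned 12725688 to 12739673, 35150553 to 35160881, 35645768 to 35652492 and 45292308 to 45302230. The first of these contained the widest 6 h peak of the chromosome. The 6 h groups of 3 peaks began at 1309227, 1922699, 2431569, 8670553, 13132396, 50064425, 50603839 and 53524847. A 4-week peak overlapped the span of 5 of the 12. The 4-week groups spanned 881942 to 891410, 4131517 to 4139563 and 18291802 to 18297047. None of these 3 contained a 6 h peak.

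Few sites on the chromosome were called at both times. Shared means that a peak overlapped one from the other list by 1 bp or more. At 6 h 30 of 352 peaks were shared (8.52%, 5.82 to 11.9%), beside a background of 9.15% over the whole 6 h list. At 4 weeks 31 of 204 were shared (15.2%, 10.6 to 20.9%), beside 16.7% over the whole 4-week list. Both shares are near their background. On the named chromosomes other than 19 they were 8.54% and 17.4%, on chromosome 16 8.98% and 16.4%, and on chromosome 20 15.3% and 23.5%. Among the 20 numbered chromosomes, chromosome 19 stood at rank 9 from the highest at 6 h and rank 15 at 4 weeks. The density that chose the chromosome thus went with no larger shared part in these lists.

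By 5 Mb stretch, the first held 8 shared peaks of 46 at 6 h and 8 of 57 at 4 weeks. From 40000001 to 45000000 there were 6 of 36 and 6 of 33, and beyond 50000001 there were 5 of 40 and 5 of 21. None of the 33 and 10 peaks from 35000001 to 40000000 was shared, and 1 of the 34 and 1 of the 4 peaks from 45000001 to 50000000 was. With so few shared peaks per stretch, an uneven spread along the chromosome was not tested.

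Most unshared peaks on chromosome 19 had no peak of the other list within 10 kb. These distances were not computed on the other chromosomes, so whether they are usual was not tested. Of 173 unshared 4-week peaks, 18 lay within 1 kb of a 6 h peak (10.4%) and 37 within 10 kb (21.4%), and the median distance was 37.1 kb (27.3 to 49.7 kb). Of 322 unshared 6 h peaks, 19 lay within 1 kb of a 4-week peak (5.90%) and 43 within 10 kb (13.4%), and the median distance was 87.0 kb (71.8 to 111 kb). The 6 h list is longer, which by itself can shorten the first distances. How much of the difference between the medians this makes up was not tested.

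On chromosome 19 the intervals for the median width of shared and of unshared peaks overlapped. At 6 h the median was 274 bp for 30 shared peaks (218 to 368 bp) and 250.5 bp for 322 unshared peaks (235 to 261 bp). At 4 weeks it was 281 bp for 31 shared peaks (235 to 351 bp) and 256 bp for 173 unshared peaks (245 to 271 bp). On the other chromosomes the shared peaks were wider, with medians of 320 bp (306 to 336 bp) against 249 bp at 6 h and 316 bp (307 to 332 bp) against 253 bp at 4 weeks. The intervals for shared peaks on chromosome 19 include those medians, so a smaller width difference there was not shown. Of the shared 6 h peaks 6 of 30 had the narrowest width (20%, 7.71 to 38.6%), against 10.1% (7.93 to 12.6%) elsewhere, and these intervals overlap too. Of the 14 widest 6 h peaks, those of at least 500 bp, 4 were shared (28.6%, 8.39 to 58.1%), and of 9 such 4-week peaks 2 were (22.2%, 2.81 to 60.0%). Over peaks of all widths the whole lists had 9.15% and 16.7%, values inside these intervals. The shared part of peaks this wide was not computed elsewhere, so neither value can be called high for this chromosome.

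The shared peaks formed 31 overlapping pairs, and the 6 h peak from 30151604 to 30152327 was met by a 4-week peak at each of its ends, 30151603 to 30151837 and 30152141 to 30152421. The overlap ran from 32 to 399 bp with a median of 199 bp, against 204.5 bp in 692 pairs on the other chromosomes. The 6 h peak was the wider one in 16 pairs, the 4-week peak in 14, and 1 pair was equal. Elsewhere the 6 h peak was wider in 53.8% of pairs (49.96 to 57.5%). In 6 pairs the 6 h peak lay wholly within the 4-week peak, and in 4 the reverse held. The midpoints were a median of 119 bp apart, and in 7 pairs they were within 50 bp. In 15 of the 31 pairs each peak was covered by the other over at least 50% of its width. Spearman's rho between the 6 h and 4-week widths across the pairs was 0.10, a description over pairs from the same libraries.

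The longest overlap was at the far end of the chromosome, with a 6 h peak from 53531692 to 53532110 (419 bp) over a 4-week peak from 53531697 to 53532095 (399 bp). The 4-week peak lay entirely inside the 6 h peak, with midpoints 5 bp apart. The next was the widest 4-week peak, at 51300032 to 51301024, which enclosed the 6 h peak at 51300421 to 51300808 with 388 bp in common. At 34132477 to 34132916 (6 h) and 34132542 to 34132892 (4 weeks) the overlap was 351 bp. At 51569272 to 51569611 (6 h) and 51569094 to 51569668 (4 weeks) it was 340 bp. A pair starting at 43985930 at 6 h and 43985825 at 4 weeks had 278 bp in common. The other 5 of the 10 longest overlaps, from 218 to 241 bp, involved 6 h peaks starting at 2431569, 30151604, 5945445, 2156270 and 51194476. Of these 10 sites, 3 lay between 51194464 and 51569668, a stretch in which the 6 h list was also dense.

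**Figure D4:**
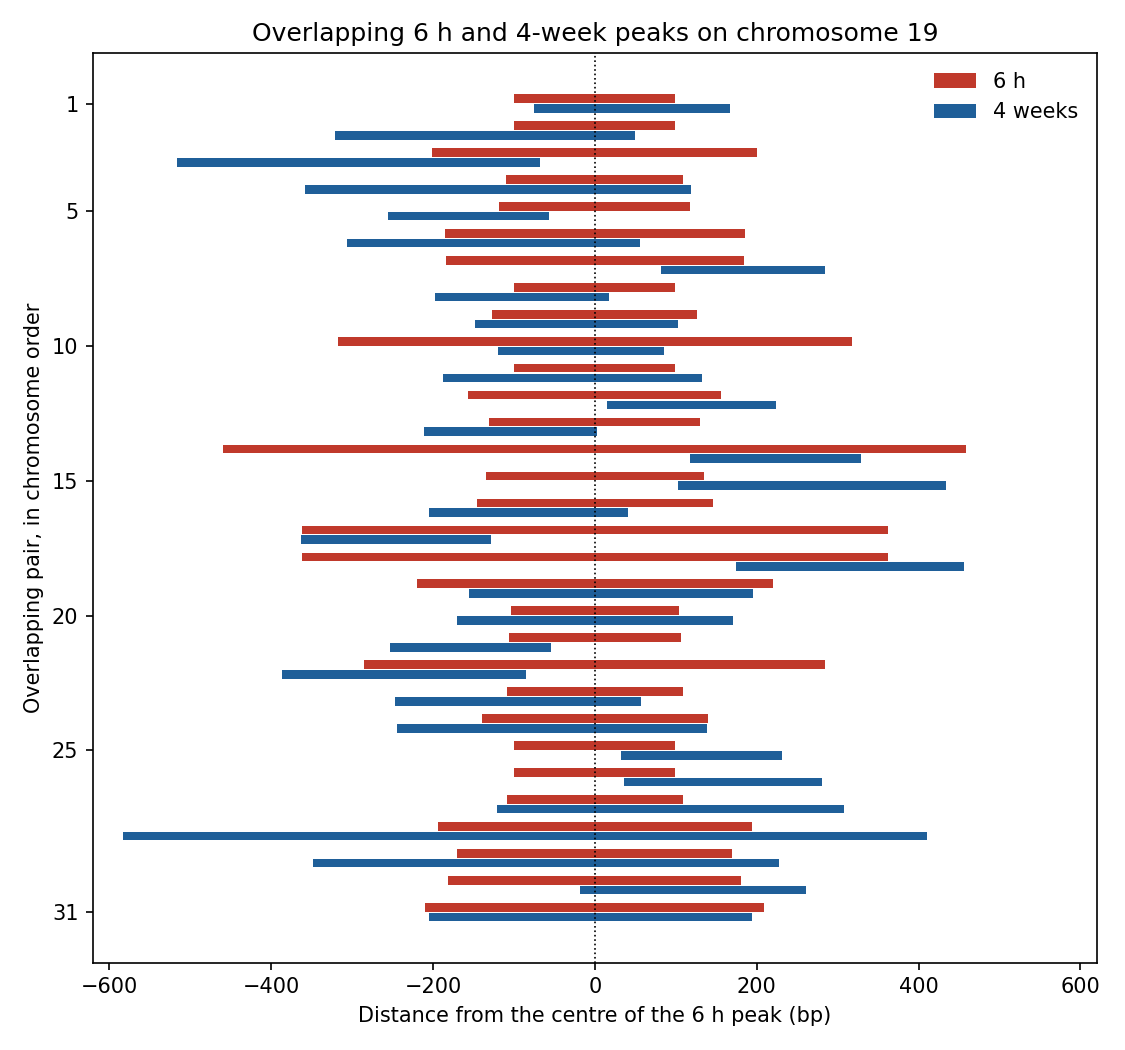
Each row is an overlapping pair on chromosome 19, numbered from the low-numbered end, with the 6 h peak in red centred at 0 and the 4-week peak in blue below it, in bp from the centre of the 6 h peak. The 31 pairs overlap by 32 to 399 bp, the offsets go both ways, and pairs 17 and 18 share a 6 h peak.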

How the data were processed

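The 2 files used are peak lists that the authors deposited, each of HIF-1α ChIP set against input at 1 time, per the file names. Bowtie2 2.0 and MACS2 are named in the submitters' processing notes; in the sources used here no settings, MACS2 version, filters or genome build are given. Each list has 3 columns, the sequence name, start and end, with no header, score or p-value. Depth is therefore unknown, and peak numbers are not corrected for it. Starts were read as counting from 0 and are printed counting from 1 in the build of the files. If they already count from 1, each printed start is 1 bp too high and each width 1 bp too small.

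Chromosome 19 was selected by sequence name, and the other lists and thresholds, like the choice of the chromosome, were made with earlier results of these data known. Named by position were the 10 widest peaks of each list, the 10 longest overlaps, every group of at least 3 peaks, every 1 Mb window with at least 15 peaks and the 5 longest empty stretches. Overlaps were computed with numpy 2.4.6 and pandas 2.3.3 (Python 3.11.15; intervals by scipy 1.17.1, plots by matplotlib 3.10.9) and gave the same numbers of shared peaks with bedtools 2.31.1. Shares have exact Clopper-Pearson 95% intervals, ratios the matching binomial interval, and medians intervals from binomial order statistics. The scripts were tested on simulated data of the size of chromosome 19 and found the 30 overlaps and 5 groups that had been planted. With 1 ChIP library per time no test between times was made. Alternatives included other overlap rules, the widest 50% of each list, merging within 1 kb and other distances.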

Additional observations from a re-analysis of the deposited data

How the results depend on the processing

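Leaving out the first 1 Mb was an alternative chosen after seeing the data. Among 59 alternative values, 33 lay inside the reported value's interval or within 1.5 times a reported count, and 26 moved. The ratio of 6 h to 4-week peaks ranged from 1.48 (widest 50%) to 1.89 (without the first 1 Mb) over the 5 settings in which it was computed. The widest 50% of each list left 158 and 107 peaks, median gaps of 199.5 and 209 kb, 87.9% of 4-week peaks isolated, 10.3% of 4-week peaks shared and 2 windows with at least 15 peaks. Shifted windows gave 7 such windows. Within 1 Mb of an end lay 2.84% of peaks at 6 h and 11.8% at 4 weeks, and within 5 Mb 27.6% and 38.2%. Within 2 Mb of an end the 4-week share was 12.5% without the first 1 Mb. The 6 h median width was 276 bp without the narrowest peaks. Isolated peaks made up 78.4% and 81.8% after merging within 1 kb, 80.1% and 80.9% at 5 kb, and 59.9% and 62.7% at 20 kb. A reciprocal overlap of 50% gave shared parts of 4.26% at 6 h and 7.35% at 4 weeks, and midpoints within 1 kb gave 12.5% and 22.1%. With isolated peaks only 10.2% of 4-week peaks were shared, and with the 6 h list limited by width to 204 peaks 9.80%. Smaller lists, wider or narrower distances and stricter overlaps can shift these values by construction. How much of each shift this makes up, and any further cause, was not tested. No paired analysis was possible because there is 1 ChIP library at each time. How many peaks were missed for lack of reads cannot be told without the depth.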

Other observations

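In the 31 overlapping pairs on chromosome 19 the midpoint of the 4-week peak lay at the lower coordinate in 19 (61.3%, exact 95% interval 42.2 to 78.2%), with a median offset of -27.5 bp. In the 692 pairs on the other chromosomes it did so in 330 (47.7%, 43.9 to 51.5%), with a median offset of 8.0 bp, and on chromosome 16 in 15 of 37. The intervals overlap, and no difference was shown.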
